A study of Mus musculus with 4 samples.

Results

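The 39 Hox cluster genes of the mouse were described in neurons made from embryonic stem (ES) cells. They were taken as the gene symbols present in all libraries that consist of Hox, a cluster letter from a to d and a number, which gave 39 of the 34968 shared symbols: 11 in the Hoxa cluster, 10 in Hoxb, 9 in Hoxc and 9 in Hoxd. The series asked how adding the transcription factor St18 to Nkx2-1 and Dlx2 affected such neurons, and it held 4 bulk RNA libraries, 2 from a line labelled N/D and 2 from a line labelled N/D/S. Both lines descend from a Dlx6-Cre; Ai9 parental ES line, labelled as strain C57/BL6, in which Cre driven by Dlx6 regulatory DNA switches on the red reporter tdTomato. Both carry Nkx2-1 under a Nestin enhancer together with the tetracycline transactivator, which drives Dlx2 alone in N/D and Dlx2 with St18 in N/D/S. All cultures were embryoid bodies grown for 12 days with XAV-939, an inhibitor of Wnt signalling, and SAG, an activator of Sonic hedgehog signalling, and tdTomato+ cells were sorted. The ES lines were selected as clones, so each genotype stands for the clone or clones used, and a difference between clones and an effect of St18 cannot be told apart.

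Hox genes encode homeodomain transcription factors that give cells along the head-to-tail axis their position. Within each cluster the genes of low paralogue number are switched on first and furthest forward, in the hindbrain, and those of high number later and in the trunk, while the forebrain, including the ventral region that makes cortical interneurons, normally keeps the clusters silent under Polycomb repression. Retinoic acid and Wnt signals open the clusters, and the proteins bind DNA with Pbx and Meis cofactors.

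Of the 39 genes, 5 reached 1 TPM (the unit of the tables, a transcript's share of a library after scaling for length) in any library, and all 5 belong to paralogue groups 1 to 3 of the Hoxa and Hoxb clusters. The coding sequences of the homeoboxes, the 180 bases that encode the DNA-binding homeodomain, are given here for the paralogues Hoxa2 and Hoxb2, the members with the highest single values, to show how far these copies differ. Capitals mark the bases that differ from the other gene. Hoxa2 lies at chr6:52163411-52163590 on the minus strand and Hoxb2 at chr11:96352985-96353164 on the plus strand of GRCm38, both within a coding exon; they matched at 134 of 180 bases (74.4%), with a longest identical run of 11 bases.
Hoxa2: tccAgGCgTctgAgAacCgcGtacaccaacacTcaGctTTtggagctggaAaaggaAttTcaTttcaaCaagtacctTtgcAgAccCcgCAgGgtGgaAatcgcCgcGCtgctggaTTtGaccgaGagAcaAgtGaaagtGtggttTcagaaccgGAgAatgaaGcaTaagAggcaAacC
Hoxb2: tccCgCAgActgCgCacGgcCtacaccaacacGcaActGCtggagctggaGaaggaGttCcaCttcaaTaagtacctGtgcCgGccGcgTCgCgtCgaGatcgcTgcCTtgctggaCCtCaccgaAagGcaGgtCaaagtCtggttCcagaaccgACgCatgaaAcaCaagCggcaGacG

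Sharing with other annotated transcripts was measured in words of 31 bases, the length that kallisto uses by default. Of the 31-base words of Hoxb3, 52.7% also occurred in another gene, 2196 of them in its antisense partner Hoxb3os. The share was 26.5% for Hoxb2, with 923 words shared with the same antisense gene, 26.0% for Hoxa3 (Hoxaas2, Gm28308 and Gm29430), 13.7% for Hoxa2 (239 words, the readthrough transcript Gm28308) and 0.345% for Hoxb1. The strand setting of the quantification is not given in the sources used here, so reads of Hoxb2 or Hoxb3 and of Hoxb3os cannot be told apart in these values, and the levels of Hoxb3, Hoxb2 and Hoxa3 are uncertain to that extent. Hoxb3os was not analysed here, and Gm28308 was listed at 0 in all 4 libraries.

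The promoters of those members that reached 1 TPM and had an entry in the RefSeq table (GRCm38.p6; windows of 300 bases over the transcription start) are shown with the motifs found in them in capitals. The motifs searched, on both strands, were TGATNNAT (a Pbx-Hox site), TGACAG (a Meis site) and AGGTCA (the half-site of the retinoic acid receptor). Hoxa2 (chr6:52164782-52165081, minus strand, 9 CpG) held TGATNNAT on its reverse strand and TGACAG, Hoxa3 (chr6:52213018-52213317, minus strand, 20 CpG) held TGACAG on its reverse strand, and Hoxb1 (chr11:96365508-96365807, plus strand, 10 CpG) held TGATNNAT. No marked motif overlapped another.
Hoxa2 promoter: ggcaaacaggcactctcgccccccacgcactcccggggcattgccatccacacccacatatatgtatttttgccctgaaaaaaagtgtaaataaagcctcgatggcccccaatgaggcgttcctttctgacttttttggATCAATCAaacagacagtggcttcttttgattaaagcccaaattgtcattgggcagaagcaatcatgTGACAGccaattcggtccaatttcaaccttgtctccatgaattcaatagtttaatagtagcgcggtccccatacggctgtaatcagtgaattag
Hoxa3 promoter: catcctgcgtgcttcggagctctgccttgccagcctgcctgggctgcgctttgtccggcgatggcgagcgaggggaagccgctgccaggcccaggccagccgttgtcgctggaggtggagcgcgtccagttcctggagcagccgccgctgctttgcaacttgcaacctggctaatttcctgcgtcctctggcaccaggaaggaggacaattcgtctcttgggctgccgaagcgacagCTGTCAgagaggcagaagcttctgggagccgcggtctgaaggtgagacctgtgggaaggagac
Hoxb1 promoter: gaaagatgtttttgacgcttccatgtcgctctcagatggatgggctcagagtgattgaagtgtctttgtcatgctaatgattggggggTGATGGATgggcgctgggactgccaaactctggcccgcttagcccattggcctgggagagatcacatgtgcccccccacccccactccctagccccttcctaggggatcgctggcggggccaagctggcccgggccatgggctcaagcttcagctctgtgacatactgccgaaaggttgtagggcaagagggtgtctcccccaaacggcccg
Entries were found for 22 Hox genes, with 24 promoters. Of these, 4 held TGATNNAT, 2 TGACAG and 7 AGGTCA, while the shares over all 32851 promoters were 8.85%, 19.2% and 16.3%. The median number of CpG dinucleotides was 14.5 in the Hox promoters and 7 over all promoters.

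Several facts of the libraries stand before the results. St18, the gene added in N/D/S, measured 44.4 and 15.9 TPM, by replicate number, under the N/D/S label, beside 28.5 and 26.6 TPM under the N/D label, so it did not separate the groups (log2 difference -0.04, SE 1.03, adjusted p = 1.00 by limma with Benjamini-Hochberg adjustment), and every direction between the lines rests on the labels. The library labelled N/D replicate 1 stood apart: 61.6% of its symbols were listed at 0, against 40.7% to 51.0% in the other libraries, and of 6139 genes that reached 10 TPM in each of the 3 others, 613 were listed at 0 in it. Symbol lists were shared by replicate number, with 203 symbols found for replicate 1 alone and 210 for replicate 2 alone. Read depth is unknown from TPM, a value of 0 may be a failed estimate, and TPM are relative, so fewer cells of a type and less RNA per cell cannot be told apart. The sorted cells carried neuronal and ventral forebrain transcripts: all 8 neuronal markers were above 1 TPM in each library, and the 12 forebrain markers summed to 1472 and 617 TPM in N/D/S, against 496 and 1269 TPM in N/D, where Otx2 and Lhx2 were listed at 0 in N/D replicate 1. The labels do not say whether the 2 libraries of a line came from separate cultures, so the p-values measure only the spread between these libraries, which may be technical.

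The Hox clusters were low as a whole. Together the 39 genes summed to 50.6 and 7.17 TPM in N/D/S replicates 1 and 2 and to 63.5 and 7.17 TPM in N/D replicates 1 and 2. The Hoxb cluster (chr11:96194316-96368256) carried most of the sum in 3 libraries, with 36.1 and 4.04 TPM in N/D/S, against 57.7 and 3.47 TPM in N/D. The Hoxa cluster (chr6:52155590-52260880) summed to 14.2 and 2.81 TPM in N/D/S, against 5.60 and 3.28 TPM in N/D, so in N/D replicate 2 the clusters were nearly level. The Hoxc cluster (chr15:102921103-103036852) summed to at most 0.285 TPM in any library and the Hoxd cluster (chr2:74668310-74765142) to at most 0.213 TPM.

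Within Hoxa and Hoxb the level was set by the low paralogue groups. The 6 genes of groups 1 to 3 summed to 49.7 and 6.77 TPM in N/D/S, against 63.0 and 5.97 TPM in N/D, whereas the 15 genes of group 4 and above in the same clusters summed to at most 0.781 TPM. The 16 genes of groups 9 to 13 over all clusters, which pattern the posterior trunk and limbs, summed to at most 0.335 TPM. Genes at or above 1 TPM numbered 5 and 2 in N/D/S and 3 and 2 in N/D, that is 5.13% to 12.8% of the Hox genes against 22.3% to 37.7% of all symbols. Between 20 and 29 Hox genes were listed at 0 in a library, 51.3% to 74.4% of them, against 40.7% to 61.6% of all symbols.

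**Figure D1:**
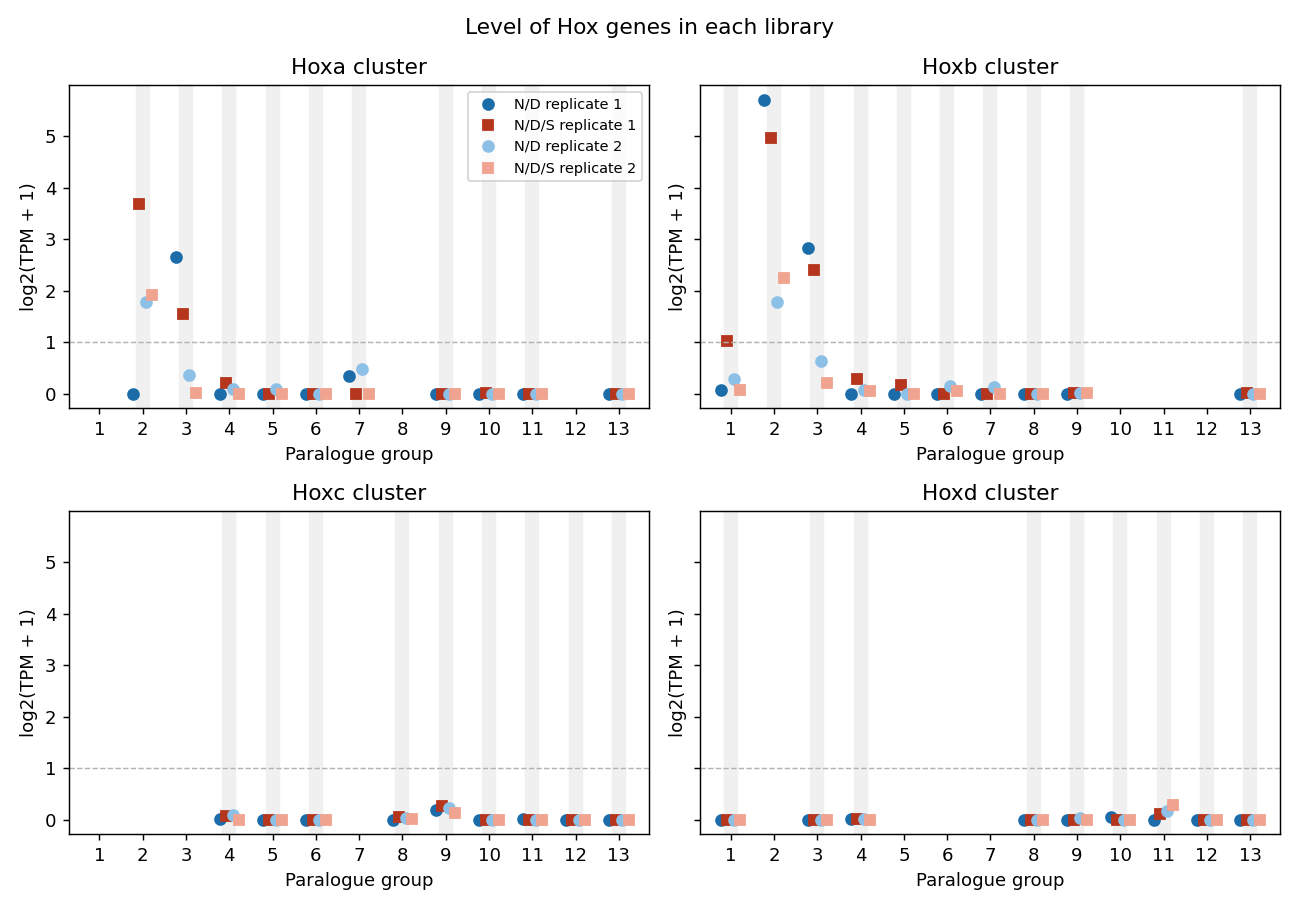
Level of Hox genes as log2(TPM + 1), by cluster and paralogue group (grey bands mark the groups shown), with 1 point per library and a dashed line at 1 TPM. Only genes of groups 1 to 3 of Hoxa and Hoxb reach the line, and Hoxb2 in the replicate 1 libraries is the highest.

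The members that never reached 1 TPM were 34, of which 15 were listed at 0 in every library and 19 were above 0 somewhere. The highest of their values was 0.387 TPM, for Hoxa7 in N/D replicate 2, and Hoxa7 was at 0.275 TPM in N/D replicate 1 and listed at 0 in both N/D/S libraries. Hoxc9, a thoracic gene, was the 1 gene of the Hoxc and Hoxd clusters above 0 in all libraries, at 0.198 and 0.0899 TPM in N/D/S, against 0.143 and 0.173 TPM in N/D. In the Hoxd cluster Hoxd11, a gene of the limb and posterior trunk, was highest, at 0.0775 and 0.213 TPM in N/D/S, against 0 and 0.127 TPM in N/D. No statement on direction can be drawn from values of this size, since the depth behind them is unknown.

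Hoxb2, which acts in hindbrain segments from the third rhombomere backward, was the highest Hox gene in all 4 libraries. It stood at 30.4 and 3.74 TPM in N/D/S replicates 1 and 2 and at 51.5 and 2.43 TPM in N/D replicates 1 and 2, and made up 33.9% to 81.1% of the summed Hox TPM. Both replicate 1 libraries were high and both replicate 2 libraries low, while the lines overlapped. In N/D replicate 2 its level hardly differed from that of Hoxa2.

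Hoxa2, the Hox gene expressed furthest forward in the hindbrain, was at 11.9 and 2.80 TPM in N/D/S, against 0 and 2.42 TPM in N/D. Both N/D/S libraries were above both N/D libraries, but the values of the replicate 2 libraries were close and the N/D replicate 1 value was a listed 0 in the library with the most such entries. In that library Hoxa2 was the 1 gene at 0 among the 4 that reached 1 TPM in 2 or more libraries.

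The group 3 genes Hoxa3 and Hoxb3, which mark the caudal hindbrain, followed the replicate number, while Hoxd3 was listed at 0 in all 4 libraries. Hoxb3 was at 4.31 and 0.157 TPM in N/D/S, against 6.14 and 0.547 TPM in N/D. Hoxa3 was at 1.92 and 0.0115 TPM in N/D/S, against 5.33 and 0.285 TPM in N/D. For both genes each replicate 1 library was above 1 TPM and each replicate 2 library below it. Hoxb1, the group 1 gene of the fourth rhombomere, reached 1 TPM in N/D/S replicate 1 alone, at 1.04 TPM, with 0.0571 TPM in N/D/S replicate 2 and 0.0495 and 0.220 TPM in N/D.

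**Figure D2:**
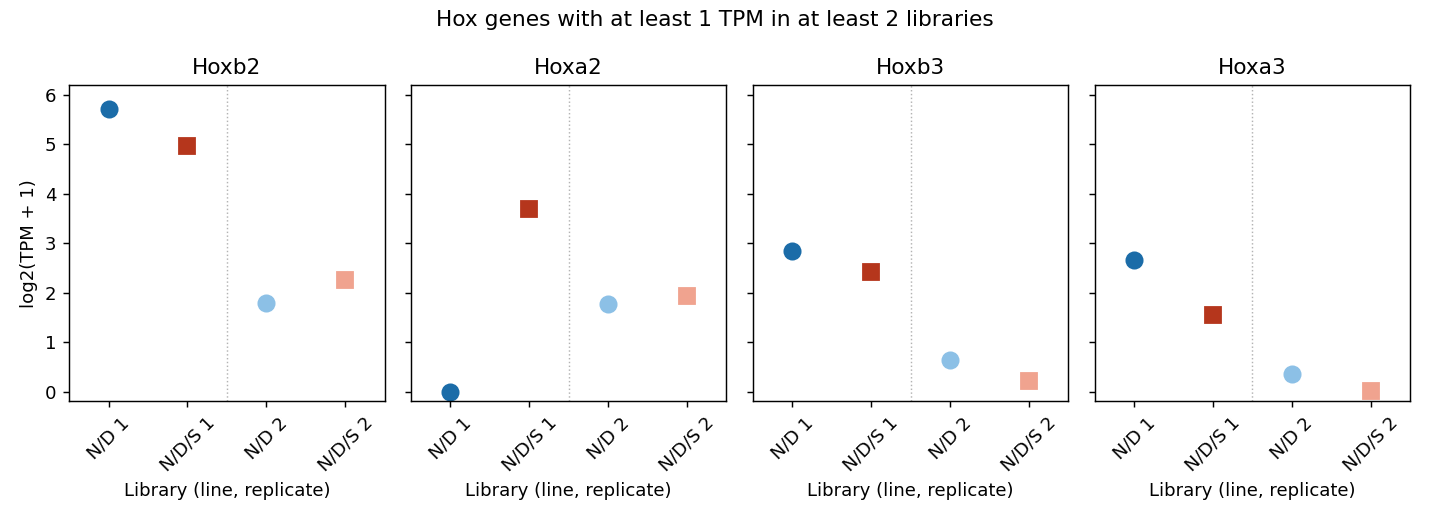
Level as log2(TPM + 1) of the 4 Hox genes that reached 1 TPM in 2 or more libraries, with 1 point per library, circles for N/D and squares for N/D/S, and a dotted line between replicate numbers. Hoxb2, Hoxb3 and Hoxa3 are higher in both replicate 1 libraries, and Hoxa2 is listed at 0 in N/D replicate 1.

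The comparison of N/D/S with N/D asks whether the Hox genes differed where St18 was added. Levels were compared as log2(TPM + 1) with limma over the 12975 genes that reached 1 TPM in 2 or more libraries, 4 of them Hox genes (Hoxa2, Hoxa3, Hoxb2 and Hoxb3), and differences on this scale understate the change of low genes. None of the 4 passed an adjusted p of 0.05, nor did any of the other genes (0% of genes tested), and none passed at an unadjusted p of 0.05, which 0.0231% of all genes passed in the direction of N/D/S and 0.0385% in the direction of N/D. Hoxa2 had the largest difference, at 1.92 (SE 1.16), with an unadjusted p of 0.143 and an adjusted p of 1.00 by limma with Benjamini-Hochberg adjustment. It was the 1 Hox gene of 4 whose groups did not overlap, with N/D/S above, as were the groups of 8.69% of all genes; no Hox gene had N/D above without overlap, against 8.23% of all genes. The differences of Hoxb2 (-0.14, SE 1.59), Hoxb3 (-0.42, SE 1.27) and Hoxa3 (-0.73, SE 1.21) were smaller than their standard errors.

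The median difference of the 4 Hox genes was -0.28, beside 0.26 over all genes tested, which became -0.29 when N/D replicate 1 was left out and 0.88 when N/D replicate 2 was. The summed Hox TPM of N/D/S was 0.818 times that of N/D, or -0.29 on the log2 scale (exact two-sided permutation test over libraries, p = 0.667; with 2 against 2 libraries the smallest p it allows is 0.333). These directions depended on single libraries. Leaving out a library also leaves the lines unequal in replicate number, and the part of this in the values that follow was not tested. Without N/D replicate 1 the differences were 1.83 for Hoxb2, 0.68 for Hoxb3, 0.42 for Hoxa3 and 1.03 for Hoxa2, and the summed level differed by 2.01 with N/D/S higher; in that fit the lone N/D library is assumed to vary like the N/D/S libraries. Without N/D/S replicate 2 they were 1.22 for Hoxb2, 0.68 for Hoxb3, 0.04 for Hoxa3 and 2.80 for Hoxa2, and 0.52 for the summed level. Hoxa2 kept its direction without each library in turn, at 1.03 to 2.81, which had to follow because its groups did not overlap. The largest value came without N/D replicate 2, where N/D was left with replicate 1 and its listed 0. Within replicate 1 Hoxa2 differed by 3.69, and within replicate 2 by 0.15. Within replicate 1, the difference of Hoxb2 between N/D/S and N/D was -0.74 on the log2 scale, and within replicate 2 it was 0.47.

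Libraries of the same replicate number were compared because they share a symbol list. What else a number marks is not given in the labels. The summed Hox TPM was 7.96-fold higher in replicate 1 than in replicate 2, or 2.99 on the log2 scale (exact two-sided permutation test over libraries, p = 0.333, the smallest it allows). The separation was 12.5-fold in Hoxb and 3.25-fold in Hoxa, with no overlap in either cluster. In Hoxc the replicate numbers overlapped, and in Hoxd replicate 2 was the higher, within sums of at most 0.213 TPM.

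By TPM, Hoxb2 in replicate 1 was 8.11 times its replicate 2 level in N/D/S and 21.1 times in N/D, and Hoxb3 was 27.4 and 11.2 times. On the log2(TPM + 1) scale Hoxb2 differed by 3.33 (SE 0.80), the 25th largest difference in that direction among the 12975 genes, Hoxb3 by 2.20 (SE 0.78) and Hoxa3 by 1.92 (SE 0.84). Hoxa2 differed by -0.01 (SE 1.37), being higher in replicate 1 of N/D/S and lower in replicate 1 of N/D. None of the 4 passed an adjusted p of 0.05 (adjusted p = 0.976 for Hoxb2, Hoxb3 and Hoxa3, by limma with Benjamini-Hochberg adjustment), and 0% of all genes did. At an unadjusted p of 0.05 Hoxb2 and Hoxb3 passed, 2 of 4, where 0.709% of all genes passed with replicate 1 higher and 1.29% with replicate 2 higher. Hoxb3 no longer passed with a replicate block or with a variance trend, and neither Hoxb2 nor Hoxb3 passed when either replicate 2 library was left out. Hoxa3 passed at this unadjusted level with smaller pseudocounts. Hoxb2, Hoxb3 and Hoxa3 did not overlap between the numbers, 3 of 4 with replicate 1 above, and no Hox gene had replicate 2 above; over all genes the shares were 14.8% and 14.7%. The median difference of the 4 genes was 2.06, beside -0.25 over all genes, a median that became 0.39 when N/D replicate 1 was left out and -0.87 when N/D/S replicate 1 was. A gene had to be high in at least 2 libraries to be tested, and for Hoxb3 and Hoxa3 these were the replicate 1 libraries, so these counts and the median follow in part from the filter and are a description; Hoxb2 reached 1 TPM in all 4 libraries.

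Leaving out the library that stood apart, N/D replicate 1, left differences of 2.96 for Hoxb2, 1.99 for Hoxb3, 1.36 for Hoxa3 and 1.84 for Hoxa2, and 2.82 for the summed level; N/D/S replicate 1 was then above both replicate 2 libraries for 4 of 4 Hox genes, as for 49.6% of all genes. Without N/D/S replicate 1, where N/D replicate 1 stands alone, Hoxb2 (3.70) and Hoxa3 (2.47) passed with adjusted p of 0.00480 and 0.0467 by limma with Benjamini-Hochberg adjustment, in a fit that called 26.2% of all genes; its spread comes from the replicate 2 libraries alone, the library that stood apart is assumed to vary like them, and Hoxa3 was tested only through its replicate 1 levels, so little rests on these calls.

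**Figure D3:**
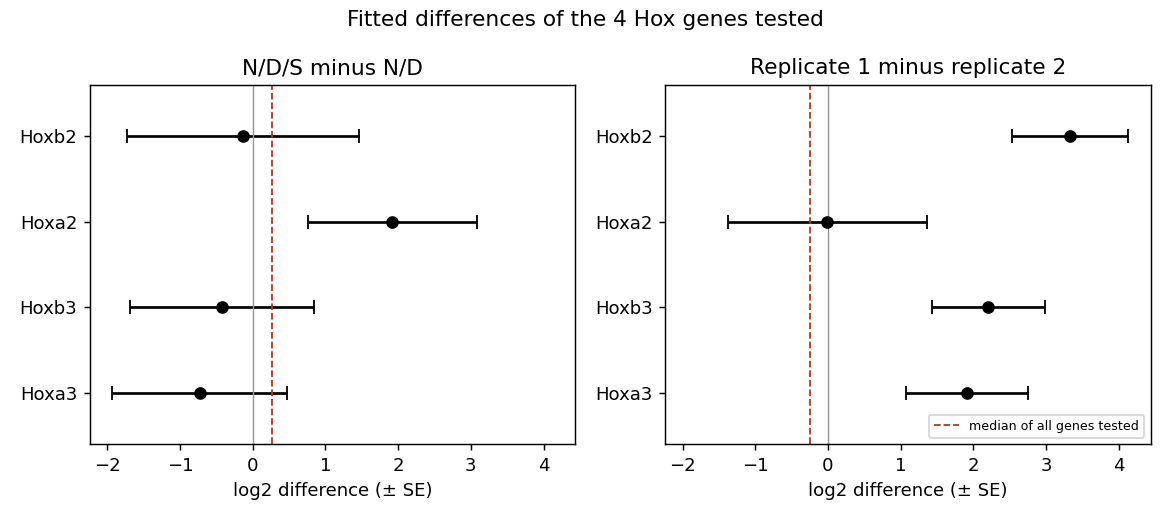
Fitted log2(TPM + 1) differences of the 4 Hox genes tested, N/D/S minus N/D on the left and replicate 1 minus replicate 2 on the right, with bars of 1 standard error and a dashed line at the median of all genes tested. Hoxb2, Hoxb3 and Hoxa3 lie near 0 or below on the left and above 0 on the right.

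Hox cofactors were compared as a list of 9 genes, all of them tested. None passed the adjusted threshold in either comparison. Meis1 and Meis2, the homeodomain partners that raise Hox binding, lay with the Hox genes: Meis1 was at 83.1 and 7.14 TPM in N/D/S, against 133 and 19.4 TPM in N/D, a difference between replicate 1 and 2 of 3.04 (SE 0.88). Meis2, which the ventral forebrain also expresses, was at 80.2 and 3.74 TPM in N/D/S, against 74.8 and 13.4 TPM in N/D, a difference of 3.25 (SE 0.91). The replicate numbers did not overlap for 4 of the 9, with replicate 1 above (Meis1, Meis2, Meis3 and Pknox1), and for none with replicate 2 above, beside 14.8% and 14.7% of all genes, and the median difference was 1.54. Without N/D replicate 1 7 of 9 had replicate 1 above and 1 of 9 replicate 2, beside 49.6% and 20.1% of all genes.

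Regional markers of the hindbrain and spinal cord summed to 86.0 and 20.7 TPM in N/D/S, against 132 and 48.5 TPM in N/D, so they too were higher in both replicate 1 libraries. Of the 12 genes 7 were tested, and 3 did not overlap with replicate 1 above, among them En1 and Gbx2, which pattern the border of midbrain and hindbrain. En1 was at 16.2 and 3.03 TPM in N/D/S, against 30.0 and 5.68 TPM in N/D. Egr2, which drives Hoxa2 and Hoxb2 in the third and the fifth rhombomere, was the 1 gene of the 7 tested without overlap in the other direction, at 1.12 and 1.30 TPM in N/D/S, against 0 and 1.39 TPM in N/D. Over all genes tested the shares were 14.8% and 14.7%. Without N/D replicate 1 the counts were 5 higher and 1 lower of 7, beside 49.6% and 20.1% of all genes. Of the 11 forebrain markers tested, none had replicate 1 above without overlap and 1 had replicate 2 above; without N/D replicate 1 the counts were 7 and 1, so the lower forebrain count rested on that library.

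Of 15 listed upstream regulators of the clusters 8 were tested and none passed the adjusted threshold. Cdx2 and Cdx4, which open the central Hox genes in the trunk, and Cyp26c1, which degrades retinoic acid, were listed at 0 in all libraries, and Aldh1a2, the main enzyme that makes retinoic acid, reached at most 0.509 TPM. Rara, a receptor of retinoic acid, was the receptor gene with the highest level, at 22.1 and 11.4 TPM in N/D/S, against 22.2 and 19.1 TPM in N/D. The 10 trithorax-side activators, which maintain active Hox chromatin, had none of 10 with replicate 1 above without overlap, beside 14.8% of all genes, and 6 of 10 without N/D replicate 1, beside 49.6%. Dpy30 alone had replicate 2 above, 1 of 10 with and without that library, beside 14.7% and 20.1% of all genes.

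Genes next to the clusters did not share the low levels. Of 22 measured 18 were tested, and in each library 14 to 18 were at or above 1 TPM; Atp5g3 beside Hoxd, a subunit of ATP synthase, was the highest. The 4 that were not tested were Ttll6, Calcoco2, Nfe2 and Evx2. The homeobox gene Evx1, beside Hoxa13, was at 1.11 and 0.00813 TPM in N/D/S, against 8.36 and 0.592 TPM in N/D, higher in both replicate 1 libraries, through which alone it passed the filter, so its direction is a description, and its relative Evx2, beside Hoxd13, was at most 0.160 TPM. The replicate numbers did not overlap for 4 of the 18, with replicate 1 above, beside 14.8% of all genes, and for 12 of 18 without N/D replicate 1, beside 49.6%.

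Levels of 3 lists of other cell types, pluripotent cells, glia and mesoderm and endoderm, were higher in both replicate 2 libraries, though no gene of them passed the adjusted threshold by limma. The 6 pluripotency genes summed to 3.60 and 0.247 TPM in the replicate 1 libraries (N/D/S first, then N/D) and to 293 and 186 TPM in those of replicate 2, mostly from Dppa5a (3.03 and 0, against 266 and 164 TPM); Pou5f1, a defining gene, was at 0.09 and 0 against 19.5 and 7.55 TPM. The 6 glial genes summed to 17.3 and 0 against 70.4 and 181 TPM, and the 13 genes of mesoderm and endoderm to 5.08 and 0.094 against 28.6 and 42.8 TPM. All tested genes of these lists, 4, 5 and 5, had replicate 2 above without overlap, as did 14.7% of all genes. Leaving out N/D replicate 1 could not change this for any of these genes. Many of them, such as Pou5f1 and Gfap, were tested only because they reached 1 TPM in the replicate 2 libraries, so these counts follow in part from the filter and are a description, while Gata6 was listed at 0 in every library. The neuronal markers summed to 4707 and 4142 against 3257 and 2952 TPM. Of the 7 neural progenitor genes, 2 had replicate 1 above without overlap and none replicate 2, beside 14.8% and 14.7% of all genes. Without N/D replicate 1 the counts were 3 and 0 of 7, beside 49.6% and 20.1% of all genes. Of the 2 neural crest genes tested, 1 lay each way. Each of them was tested only through the libraries where it was high, so their separation follows from the filter. Of the blood and vessel genes, the globins Hba-a1 (14.9 and 14.2 TPM) and Hbb-bt (6.24 and 5.10 TPM) were above 0 in the replicate 2 libraries alone, while the endothelial Pecam1 overlapped between the numbers and was highest in N/D replicate 1, at 38.8 TPM. The part of these markers, or of the replicate number, in the Hox differences was not tested.

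**Figure D4:**
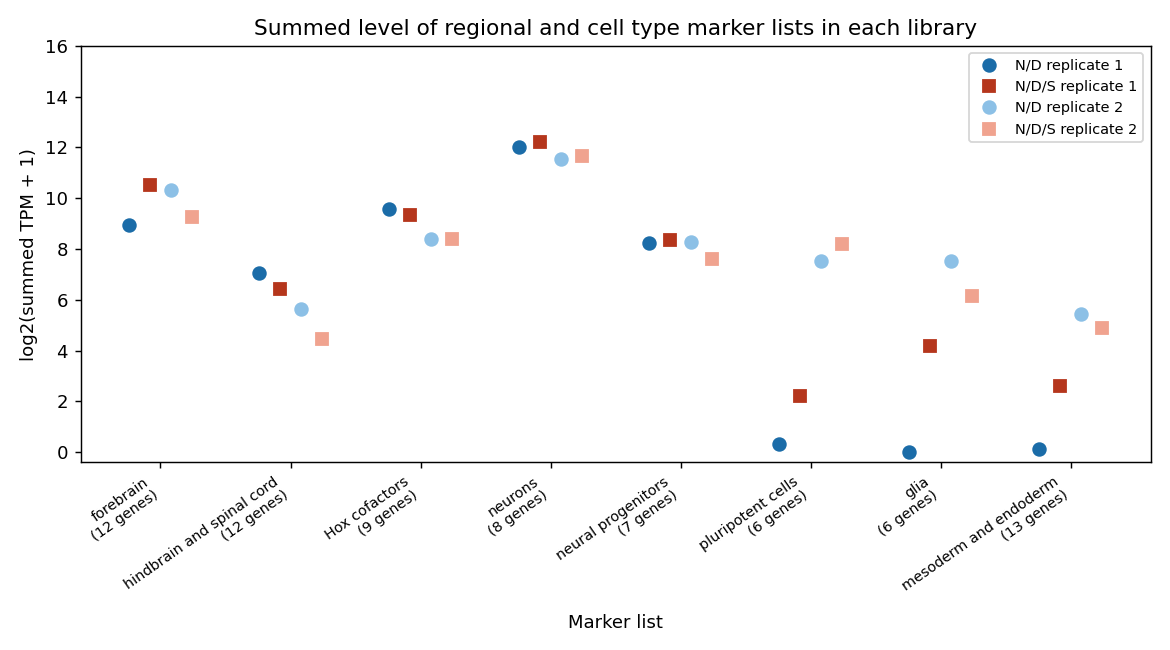
Summed level as log2(summed TPM + 1) of 8 marker lists, with 1 point per library, circles for N/D and squares for N/D/S, dark for replicate 1 and light for replicate 2. The hindbrain list and the Hox cofactors are higher in both replicate 1 libraries, and the pluripotent, glial and mesoderm and endoderm lists in both replicate 2 libraries.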

How the data were processed

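RNA of sorted tdTomato+ cells was enriched for poly-A and sequenced by the authors, who deposited 1 table of TPM values per library, made with kallisto 0.44.0 on GRCm38 and analysed with sleuth per the labels. TPM are scaled for transcript length and library total, so read depth and counting error are unknown. Annotation for GRCm38 came from GENCODE and promoters from RefSeq. Symbols that a spreadsheet had turned into dates, 26 per table, were left out. Groups followed the sample labels. Genes that reached 1 TPM in 2 or more libraries (12975) were tested as log2(TPM + 1) with limma 3.58.1 in R 4.3.3, with Benjamini-Hochberg adjustment over all of them and a threshold of 0.05, and sums by exact permutation tests (scipy 1.17.1). The method was tested on simulated data. A pass was required only at a spread below that of the Hox genes tested, so power at their spread is not shown. The members and lists were chosen with earlier results of these data known. Every Hox gene is accounted for; those that reached 1 TPM in any library are named, and of the lists the highest or lowest genes and those a Hox result turns on. En1, Gbx2, Egr2, Meis2, Evx1, Evx2, Hoxa7, Hoxc9, Hoxd11, Foxd3, Sox10 and the gene names given within counts were also named after their values were seen. Alternatives were other pseudocounts (0.1 and 0.5), filters and scalings, a variance trend, a replicate block, and leaving out each library; those for single Hox genes between replicate numbers, and the list counts without N/D replicate 1, were chosen after seeing the data. Deviations of same-numbered libraries correlated at 0.02 across genes, so the numbers were not taken as pairs. Some single-gene values and sequences are not reported here.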

Additional observations from a re-analysis of the deposited data

Results flagged for a closer look

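Hoxb2 moved in opposite directions between the lines in the 2 replicate numbers: N/D/S minus N/D was -0.74 on the log2(TPM + 1) scale in replicate 1 and 0.47 in replicate 2. Hoxa2 moved in opposite directions between the replicate numbers in the 2 lines: replicate 1 minus replicate 2 was 1.76 in N/D/S and -1.77 in N/D, where N/D replicate 1 was listed at 0. Each of these values rests on 1 library against 1, and the differences between them were not tested.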

How the results depend on the processing

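Of 198 alternative values over 19 results, 162 held, 23 moved, 11 reversed and 2 crossed the threshold. A count held if it stayed equal to or within a set ratio of its main value. The difference of a single gene held if it kept its direction and call, and the summed level if it kept its direction. The median Hox difference held if it moved by less than the spread between libraries. Where no cause is given here, the cause was not tested. Between the lines, the count of genes past the threshold was 6 with a variance trend and 0 to 2373 when a library was left out (2373 without N/D replicate 2), and no Hox gene passed under any of these. When N/D replicate 1 or N/D/S replicate 2 was dropped, the differences reversed to 0.42 and 0.04 for Hoxa3, 1.83 and 1.22 for Hoxb2, and 0.68 and 0.68 for Hoxb3; their lowest values, after dropping N/D replicate 2, were -1.88, -2.11 and -1.53. The summed level reversed to 2.01 and 0.52 without these libraries and to 0.022 as a mean of log2(TPM + 1), with a range of -2.30 to 2.01 when a library was left out. The median Hox difference ranged from -1.70 to 0.95 and changed sign, to 0.86 after dropping N/D replicate 1 and 0.95 after dropping N/D/S replicate 2. Between the replicate numbers, Hoxa2 reversed to 1.84 and 0.07 without the same libraries, with a range of -1.85 to 1.84. Hoxb2 stayed at 2.96 to 3.70, Hoxb3 at 1.99 to 2.42, Hoxa3 at 1.36 to 2.47 and the summed level at 2.82 to 3.15 when a library was left out. The count of genes past the threshold was 3 with no filter, 21 with a variance trend and 0 to 3394 when a library was left out (3394 after dropping N/D/S replicate 1 and 12 after dropping replicate 1 of N/D), and that of Hox genes 0 to 2. With at least 1 TPM in every library, Hoxb2 alone of the Hox genes was tested.

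With the replicate block, 0 genes passed in either comparison and 0 Hox genes, the median Hox difference stayed at -0.28, and the unadjusted limma p for the replicate numbers were 0.0322 for Hoxb2, 0.120 for Hoxb3 and 0.171 for Hoxa3. With a variance trend they were 0.0456 for Hoxb2 and 0.0939 for Hoxb3. For Hoxb2 and Hoxb3 they were 0.0558 and 0.180 after dropping N/D/S replicate 2, and 0.0779 and 0.125 after dropping N/D replicate 2, and for Hoxa3 0.0275 and 0.0410 at pseudocounts of 0.1 and 0.5. The block changed no adjusted call. The median of all genes between the lines was 0.26 as deposited, 0.14 after quantile normalization and -0.15 for genes at or above 1 TPM in every library.

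The number of Hox genes over a cut-off, in N/D/S replicates 1 and 2 and N/D replicates 1 and 2, was 17, 11, 10 and 19 above 0, 10, 4, 5 and 9 at 0.1 TPM, 2, 0, 3 and 0 at 5 TPM, and 2, 0, 1 and 0 at 10 TPM. Unknown depth limits what values under 1 TPM can show.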

Other observations

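Other developmental genes that Polycomb silences in many tissues were mostly low. Of 21 listed, 6 and 2 reached 1 TPM in N/D/S replicates 1 and 2, and 2 and 1 in those of N/D. The shares over all symbols were 36.9% and 34.2% in N/D/S, and 22.3% and 37.7% in N/D. Of the 39 Hox genes, 5 and 2 reached it in N/D/S, and 3 and 2 in N/D. Of the 21 genes 2 were tested, Gata3 and Foxd3, and neither passed the adjusted threshold. Foxd3, a gene of pluripotent cells and neural crest that spinal cord and hindbrain interneurons also use, was at 9.58 and 0 TPM in N/D/S replicates 1 and 2 and at 22.1 and 0.649 TPM in N/D replicates 1 and 2, a difference between the replicate numbers of 3.61 (SE 0.86, adjusted p = 0.976 by limma with Benjamini-Hochberg adjustment). It was tested only because it reached 1 TPM in the replicate 1 libraries, so its separation follows from the filter. Sox10, a second neural crest gene, lay the other way, at 0.285 and 3.65 TPM in N/D/S, against 0 and 10.7 TPM in N/D. Sox10 was tested only because it reached 1 TPM in the replicate 2 libraries, so its separation follows from the filter too.

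Of the ParaHox genes, the sister group of the Hox genes, Gsx1 and Gsx2, which pattern the ventral forebrain, were tested, and neither passed. Gsx1 was at 3.61 and 2.95 TPM in N/D/S, against 0 and 1.78 TPM in N/D, and Gsx2 at 2.68 and 1.34 TPM against 0 and 0.443 TPM. Both genes had N/D/S above without overlap, as did 8.69% of all genes, and both were listed at 0 in N/D replicate 1; Gsx2 was tested only because it reached 1 TPM in the N/D/S libraries, so its separation follows from the filter. Pdx1 was at most 0.00834 TPM, Cdx1 reached 1.79 TPM in N/D/S replicate 2, and Cdx2 and Cdx4 were listed at 0 throughout.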
